A study of Mus musculus with 53 samples.

Results

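Among 10 mouse livers collected 3 days after an injection of carbon tetrachloride (CCl4), messenger RNAs of dividing cells spanned a wide range, and the livers could be ordered along it. The order came from a proliferation score, the mean over Mki67, Top2a, Cdk1, Ccnb1 and Ccna2 of log2(CPM + 0.5), with each gene centred on its mean over the 10 livers. CPM is the count scaled to a common library size by TMM (trimmed mean of M-values), and 1 unit of the score is a 2-fold change in the 5 genes together. Every CCl4-treated library was taken, 10 of the 53 in the series, and the livers at either end were selected by the measured levels of those 5 genes, so their own values describe the livers and test nothing. All mice were male C57BL/6J, and those in the CCl4 and hepatectomy experiments were 16 weeks old. The 10 livers comprised 6 labelled as Bmp8b knockout (numbers 2, 8, 9, 12, 22 and 35) and 4 wild-type ones (4, 5, 7 and 34). They had been given a 1:1 mix of CCl4 and olive oil by intraperitoneal injection at 2 ul per g of body weight, and 6 wild-type mice given the oil served as controls. For a second set of dividing livers, 4 labelled as knockout and 5 wild-type ones taken 3 days after partial hepatectomy were used, beside 5 wild-type livers resected at day 0. The labels name the knocked-out gene but not the allele or the part of the gene removed.

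CCl4 is activated by cytochrome P450 2E1 in the hepatocytes around the central vein and kills them, and surviving hepatocytes, which are otherwise quiescent, enter the cell cycle to replace them. Cyclin D and E2F factors carry a cell through G1, the MCM helicase and polymerases copy the DNA in S phase, and the genes of G2 and mitosis follow later in the cycle. Of the score genes, Mki67 encodes the Ki-67 protein that coats mitotic chromosomes, Top2a the topoisomerase that untangles sister DNA, Cdk1 the mitotic kinase, and Ccnb1 and Ccna2 its cyclin partners B1 and A2. In bulk tissue, fewer cells of a type and less RNA per cell cannot be told apart.

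Promoters of the score genes with a window in the table (Mki67, Top2a, Cdk1 and Ccnb1) and of Aurka are shown because late cell cycle genes are known to share short elements there. The CCAAT box is bound by NF-Y, and the CHR (cell cycle genes homology region, spelled TTTGAA and, in a variant of the element, TTCGAA) is bound by complexes that repress such genes in quiescent cells and activate them in G2 and mitosis. The windows run from 250 bases before to 50 after the annotated start, 5′ to 3′ on the gene's own strand, from RefSeq on GRCm38.p6, and all 5 genes lie on the minus strand. They are chr7:135716330-135716629 for Mki67, chr11:99024140-99024439 for Top2a, chr10:69352863-69353162 for Cdk1, chr13:100786437-100786736 for Ccnb1 and chr2:172370521-172370820 for Aurka, the mitotic kinase with the steepest slope in its list described below. Capitals mark CCAAT boxes and both CHR spellings on either strand, so that a box on the other strand reads ATTGG, and no marked motif overlaps another.
Mki67: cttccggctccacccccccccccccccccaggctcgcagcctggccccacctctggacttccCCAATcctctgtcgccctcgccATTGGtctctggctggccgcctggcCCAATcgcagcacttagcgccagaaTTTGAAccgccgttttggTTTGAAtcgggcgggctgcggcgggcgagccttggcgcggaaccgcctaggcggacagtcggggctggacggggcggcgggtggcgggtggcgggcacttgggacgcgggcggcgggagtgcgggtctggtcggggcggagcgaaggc
Top2a: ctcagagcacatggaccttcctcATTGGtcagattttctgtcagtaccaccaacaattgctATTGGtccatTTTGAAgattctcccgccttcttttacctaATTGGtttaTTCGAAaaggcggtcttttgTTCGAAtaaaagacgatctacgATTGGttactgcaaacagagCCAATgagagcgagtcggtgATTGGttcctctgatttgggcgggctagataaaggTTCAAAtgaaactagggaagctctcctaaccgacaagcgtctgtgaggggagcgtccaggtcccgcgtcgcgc
Cdk1: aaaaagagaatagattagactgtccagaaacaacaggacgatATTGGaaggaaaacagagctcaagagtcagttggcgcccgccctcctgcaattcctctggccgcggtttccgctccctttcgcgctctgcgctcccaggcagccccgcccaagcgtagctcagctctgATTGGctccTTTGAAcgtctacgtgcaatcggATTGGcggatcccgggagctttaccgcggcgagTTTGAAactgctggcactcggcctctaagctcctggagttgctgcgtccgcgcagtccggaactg
Ccnb1: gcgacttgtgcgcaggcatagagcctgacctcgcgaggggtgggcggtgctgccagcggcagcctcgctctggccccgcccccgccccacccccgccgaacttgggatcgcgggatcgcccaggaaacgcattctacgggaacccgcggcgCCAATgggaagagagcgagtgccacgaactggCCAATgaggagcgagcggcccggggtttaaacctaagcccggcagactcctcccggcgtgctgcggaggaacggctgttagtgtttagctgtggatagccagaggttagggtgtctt
Aurka: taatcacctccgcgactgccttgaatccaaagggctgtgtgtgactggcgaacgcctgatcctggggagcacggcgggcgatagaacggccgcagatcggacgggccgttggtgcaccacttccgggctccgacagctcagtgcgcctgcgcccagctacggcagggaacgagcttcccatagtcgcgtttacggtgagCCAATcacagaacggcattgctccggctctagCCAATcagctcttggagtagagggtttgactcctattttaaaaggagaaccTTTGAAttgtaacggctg
Mki67 held 3 CCAAT and 2 CHR matches, Top2a 6 and 4, Cdk1 3 and 2, Ccnb1 2 and 0, and Aurka 2 and 1. Of the 27 genes in a list of mitosis and chromosome segregation, 23 had a window, and 21 of their 25 windows (84%) held a CHR match, against 6316 of all 32851 promoter windows (19.2%). CCAAT was in 20 of those 25 windows (80%) and in 37.4% of all promoters. For a list of 25 genes of DNA replication and S phase, 21 of which had a window, the CHR letters were in 4 of 26 windows (15.4%) and CCAAT in 16 of 26 (61.5%). A match is a run of letters in this window and was not tested for binding.

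The proliferation score was 1.92 in liver 2, 1.76 in liver 5, 1.14 in liver 8, 1.10 in liver 7, 0.52 in liver 9 and 0.48 in liver 4. Liver 22 was at -0.21 and liver 12 at -0.38, while livers 35 and 34 were at -3.13 and -3.20. The 8 livers from 2 down to 12 formed a graded series that spanned 4.93-fold, and livers 35 and 34 lay in a separate cluster. The 6 olive oil livers ranged from -4.83 to -3.67, below all 10 CCl4 livers. The 3 highest livers were 2, 5 and 8, with liver 7 just outside, and the 3 lowest were 34, 35 and 12, with liver 22 just outside.

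Mki67 had 222, 213.5, 156, 139, 89.0, 72.9, 61.2 and 45.5 CPM in livers 2, 5, 8, 7, 9, 4, 22 and 12, and 9.36 and 12.4 CPM in livers 35 and 34. In olive oil livers it ranged from 0.715 to 4.01 CPM with a median of 2.30. Ki-67 mRNA thus lay above the olive oil range in every CCl4 liver, including the low pair. Ccnb1 had 60.8, 47.0, 27.1, 28.7, 19.8, 15.7, 15.2 and 9.37 CPM in the same order, 0.493 CPM (2 counts) in liver 35 and no count in liver 34, against 0 to 0.713 CPM in olive oil livers. A count of 0 allows up to 3 counts, which is 0.715 CPM in liver 34, and covers counting error only. For the cyclin B1 gene, livers 34 and 35 therefore could not be told from olive oil at this depth, and the other 8 lay above it. Top2a ranged from 21.04 to 133 CPM, Cdk1 from 17.3 to 93.7 CPM and Ccna2 from 19.8 to 98.8 CPM over the 8 livers. In livers 35 and 34, Top2a was at 5.17 and 4.05 CPM, above its olive oil maximum of 3.005 CPM, whereas Cdk1 at 2.955 and 1.67 CPM was inside the olive oil range of 0.238 to 3.28 CPM.

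**Figure D1:**
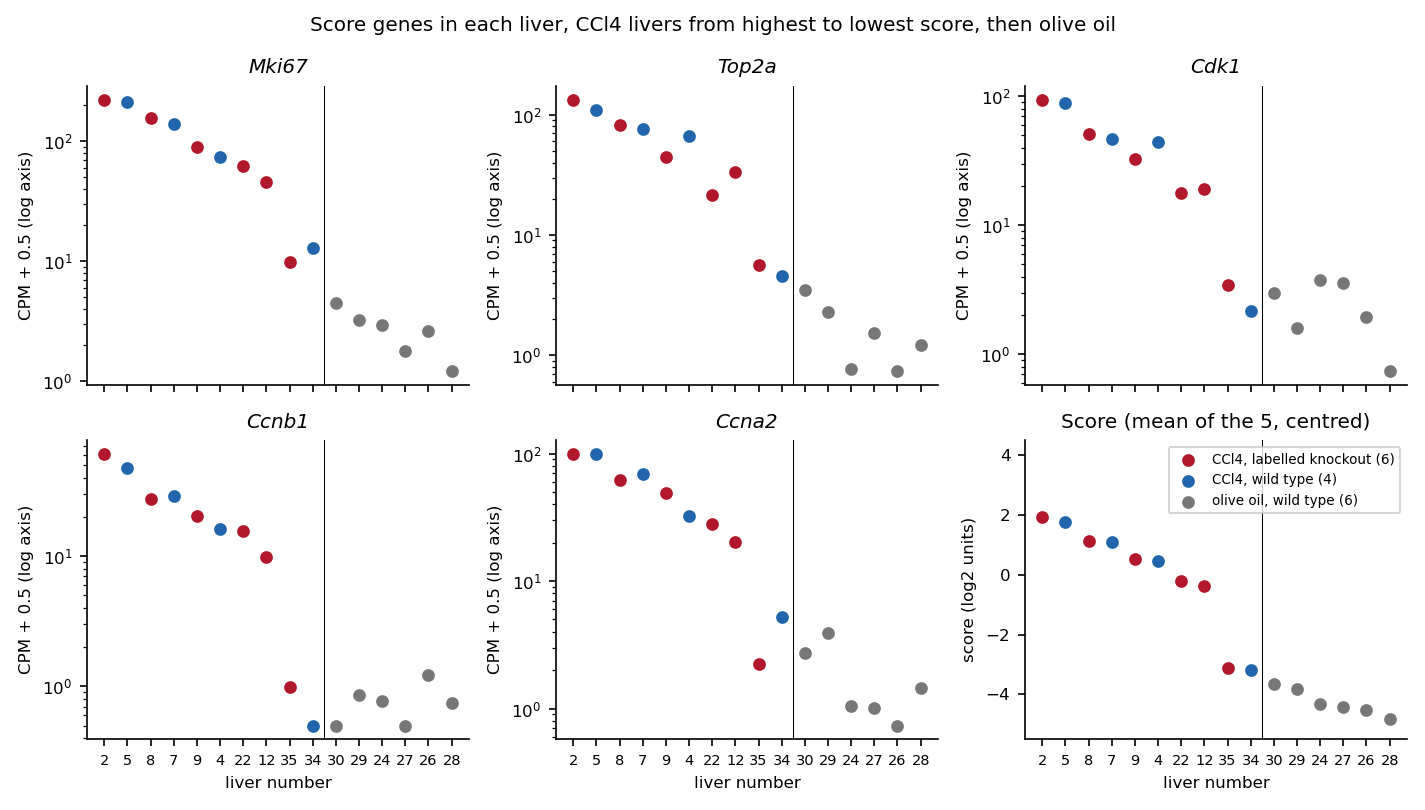
Score genes and score in each liver, with CCl4 livers from the highest to the lowest score and then olive oil livers. Points are single libraries on a log axis of CPM + 0.5 (score panel: log2 units), and the score falls in steps over 8 livers to -0.38 and then drops to -3.13 and -3.20 in livers 35 and 34.

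Livers 34 and 35 also differed from the rest in their library index. Both carried the i5 index D505, which 3 olive oil livers carried too. Liver 22 and the other 3 olive oil livers carried D504, and the remaining 7 CCl4 livers carried D503. Index and liver cannot be told apart for the pair, since no other CCl4 liver had D505, and the slopes are therefore given first for the other 8 livers. No index was shared with the hepatectomy livers at day 3, which all carried D507. Total counts were 2661699 to 6364414 per library in the CCl4 livers, 4016674 to 5853408 in olive oil livers and 2450358 to 4076861 at hepatectomy day 3. Within each group of the CCl4 experiment every pair of libraries differed beyond sampling noise (chi-square over its degrees of freedom at least 5.72 in 36 pairs). Albumin mRNA, the hepatocyte marker, stood at 32106 to 124730 CPM in the 10 livers.

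Bmp8b, the gene named in the knockout label, had 2.64, 2.08, 0.325, 0.266, 0.276 and 1.48 CPM in livers 2, 8, 9, 22, 12 and 35, all labelled knockout. In wild-type livers 5, 7, 4 and 34 it had 1.34, 0.528, 0 and 0 CPM, and no olive oil liver had a count. The labelled groups overlapped, and Bmp8b was not lower in livers labelled knockout, although reads outside the removed part, which is not stated, would check nothing. BC002163 separated the labels, with 4.86 to 10.7 CPM in the 6 livers labelled knockout and 0 to 0.352 CPM in the 4 wild-type livers. The score averaged -0.02 ± 1.75 in livers labelled knockout and 0.04 ± 2.22 in wild-type livers (SD, n = 6 and 4). The difference was -0.06, and without livers 34 and 35 it was -0.52. These values describe the order and carry no test. Both labels were found at the top, in the middle and at the bottom of the order.

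Against olive oil, the score was 4.26 log2 units higher in CCl4 livers, a 19.2-fold difference, with 0 ± 1.83 in the 10 CCl4 livers and -4.26 ± 0.44 in the 6 olive oil livers (SD). Without livers 34 and 35 the difference was 5.05. Among libraries of indices D504 and D505 alone, which leaves CCl4 livers 22, 34 and 35, it was 2.08 (n = 3 against 6).

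Mitotic genes followed the gradient closely among the 8 livers without 34 and 35. The change of each gene per unit of score, its slope on the log2 scale, was fitted with edgeR's quasi-likelihood test to 11565 genes other than the 5 score genes, and the threshold for a call was an adjusted p (Benjamini-Hochberg) under 0.05. Slopes were positive and called for 100 genes (0.865% of those tested) and negative and called for 9 (0.0778%). In the mitosis list, 20 of 27 genes rose with the score and none fell. All 27 had a slope above 0, from 0.60 to 1.14 with a median of 0.87, whereas 5783 of the 11565 tested genes had a slope above 0. The genes share livers with the score genes and the cell cycle lists were chosen with these data known, so the counts describe which genes move with the score. The calls rested on a few livers. The count of mitosis genes called was 4 without liver 2, 8 without liver 5, 9 without liver 22 and 13 without liver 12, while all 27 slopes stayed above 0 in each fit that left out 1 liver.

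Ect2, which encodes the RhoA exchange factor that starts cytokinesis, had 78.8, 66.8, 38.2, 34.8, 32.5, 26.6, 16.5 and 13.5 CPM in livers 2, 5, 8, 7, 9, 4, 22 and 12. It had 1.48 and 1.91 CPM in livers 35 and 34 and at most 1.66 CPM in olive oil livers. Its order was that of the score without exception among the 8 livers, at a slope of 1.03 ± 0.09 (SE, adjusted p = 0.000557). Over these livers its Pearson r with the score was 0.984 and its Spearman rho 1, each with an exact permutation p of 4.96e-05, the smallest possible for rho, and with Benjamini-Hochberg values over all genes of 0.104 and 0.0956. Without the 2 livers farthest from the median score, r was 0.97. Aurka, the centrosomal kinase Aurora A, had 61.5 CPM in liver 2 and 9.10 CPM in liver 12, with 2.46 and 2.38 CPM in livers 35 and 34 and 0 to 2.31 CPM in olive oil livers. Its slope was the steepest of the list at 1.14 ± 0.10 (adjusted p = 0.000557). Anln, which encodes the contractile ring scaffold anillin, kept the order of the score exactly, with 38.5 CPM in liver 2, 9.37 CPM in liver 12 and a slope of 0.85 ± 0.09 (adjusted p = 0.00226). Ect2, Aurka and Anln remained called in each of the 8 fits that left out 1 liver.

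**Figure D2:**
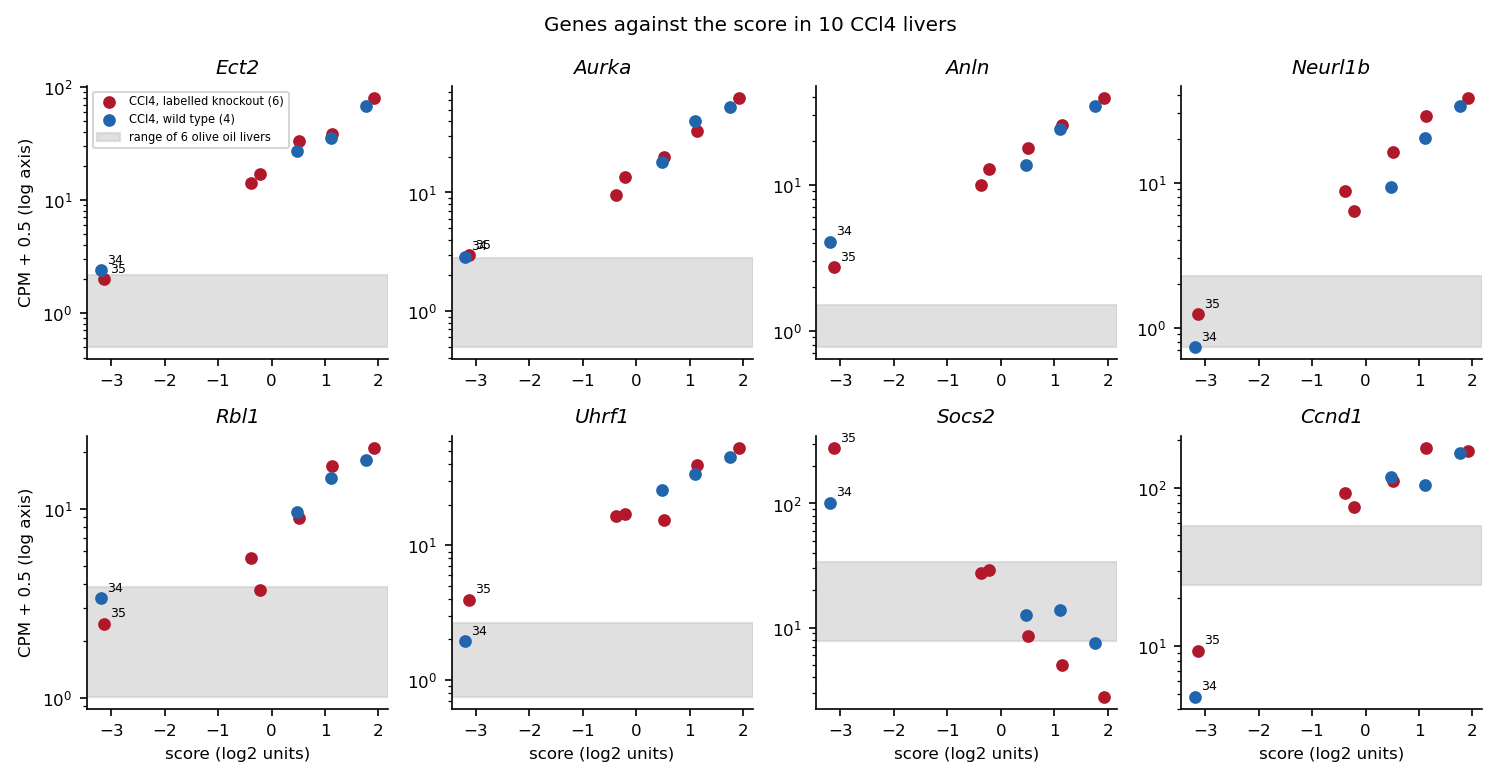
Levels of 8 genes (CPM + 0.5, log axis) against the proliferation score (log2 units) in the 10 CCl4 livers, one point per liver, with the range of the 6 olive oil livers in grey. Ect2, Aurka and Anln climb over the 8 graded livers, Socs2 descends, and Ccnd1 in livers 34 and 35 lies below the olive oil range.

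Genes of DNA replication had shallower slopes. In that list 5 of 25 rose with the score (Uhrf1, Tyms, Mcm4, Fen1 and Rfc4) and none fell, with a median slope of 0.51, and 24 of the 25 had a slope above 0. DESeq2 and limma voom each called 13 of the 25. Uhrf1, which guides maintenance DNA methylation at the replication fork, had a slope of 0.78 ± 0.11 (adjusted p = 0.00725), and Tyms, the thymidylate synthase gene, 0.63 ± 0.12 (adjusted p = 0.0392). Mcm3, a subunit of the replicative helicase, had 66.6 CPM in liver 2 and 29.2 CPM in liver 12, and its slope of 0.50 ± 0.11 did not pass (adjusted p = 0.0798). The count of replication genes called was 0 without liver 2 and 13 without liver 4. Relative to the olive oil mean, the replication list averaged 2.98 log2 units higher in liver 2 and 1.80 in liver 12, and the mitosis list 5.499 and 3.596. Whether the lists differ in slope was not tested.

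Of 20 cell cycle transcription factors and G1 cyclins, 2 rose with the score. Foxm1, the factor that drives G2 and mitosis genes, had 46.4, 34.0, 29.5, 19.0, 11.1, 20.2, 12.8 and 15.4 CPM in livers 2, 5, 8, 7, 9, 4, 22 and 12, a slope of 0.73 ± 0.14 (adjusted p = 0.0359). The livers at the top stood above the rest, but the 5 lower ones were not in score order. Foxm1 was no longer called without liver 2, 5, 8 or 22. Rbl1, which encodes the pocket protein p107, had a slope of 1.00 ± 0.15 (adjusted p = 0.0075), lost without liver 2 only among the 8 livers. Ccnd1, the G1 cyclin, had 171 CPM in liver 2 and 92.3 CPM in liver 12 and a slope of 0.47 ± 0.11 (adjusted p = 0.0903). E2f1 had a slope of 0.32 ± 0.13 (adjusted p = 0.362), and Myc -0.15 ± 0.21 (adjusted p = 0.828), so neither gene passed.

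Other genes called along the 8 livers were mostly outside the lists, since 27 of the 100 positive ones were members of the cell cycle lists above. By family, chosen after the values were seen, 7 of 30 measured kinesins rose, among them Kif11 and Kif22, as did 7 of 15 condensin and SMC subunits and 5 of 9 alpha and beta tubulin genes. Tubulin genes are near-identical in sequence, and how reads were shared between them is not given in the sources used here. Neurl1b, an E3 ubiquitin ligase that acts on Notch ligands, had 37.5 CPM in liver 2 and 8.27 CPM in liver 12, 0.739 and 0.238 CPM in livers 35 and 34, and at most 1.75 CPM in olive oil livers, with a slope of 1.11 ± 0.14 (adjusted p = 0.00334). Esco2, the acetyltransferase that sets sister chromatid cohesion, had a slope of 0.86 ± 0.10 (adjusted p = 0.00248). Both were kept in each fit without 1 liver. Melk, a mitotic kinase, had a slope of 1.01 ± 0.15 (adjusted p = 0.00736) that was lost without liver 2 or 5. Kifc1, a minus-end kinesin, had a slope of 1.08 ± 0.22 (adjusted p = 0.0482) and was kept in only 2 of the 8 fits.

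The 9 genes that fell with the score among the 8 livers included Socs2, which restrains growth hormone signalling. It had 2.29, 6.96, 4.51, 13.4, 8.12, 12.3, 28.8 and 27.0 CPM in livers 2, 5, 8, 7, 9, 4, 22 and 12, against 7.39 to 33.3 CPM in olive oil livers, a slope of -1.17 ± 0.22 (adjusted p = 0.0296). The lowest values were in the livers with the most proliferation, below the olive oil range in livers 2, 5 and 8. Csad and Smad9 are named here after their values were seen. Csad, an enzyme of taurine synthesis, had 36.9 CPM in liver 2 and 110 CPM in liver 12, against 139 to 445 CPM in olive oil livers (slope -0.995 ± 0.145, adjusted p = 0.00736). Smad9, a transducer of BMP signals, had 4.22 CPM in liver 2 and 25.1 CPM in liver 12 (slope -0.88 ± 0.16, adjusted p = 0.03), and was the only called member among 24 of the TGF-beta and BMP pathway. Socs2 was lost without liver 2, 5, 8, 12 or 22, Csad without liver 2, 5 or 22, and Smad9 without liver 2, 7, 9, 12 or 22.

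No member of the other 31 lists, which cover hepatocyte zones and metabolism, inflammation, stress and the non-parenchymal cell types, was called along the 8 livers. Among them, Glul, the glutamine synthetase of pericentral hepatocytes, had 44.5 CPM in liver 2 and 75.8 CPM in liver 12. Cyp2e1, whose enzyme activates CCl4, had 1002 CPM in liver 2 and 1537 CPM in liver 12. The myofibroblast and matrix list had 24 of 29 slopes above 0, the quiescent stellate list 10 of 12, and the macrophage list 6 of 15. Slopes above 0 were rare in the hepatocyte identity (0 of 20), periportal (2 of 16) and drug-metabolizing cytochrome lists (2 of 20). The same held for the acute phase (1 of 21) and neutrophil lists (0 of 6). Other hepatocyte lists were mixed, with pericentral 6 of 15, bile acid 7 of 19, fatty acid oxidation 7 of 19 and sterol synthesis 5 of 20. Lipid droplet genes had 4 of 12, male-biased genes 3 of 13 and oncofetal genes 8 of 8. Genes of a list share the 8 livers, so their signs are not independent. Among all tested genes, 5783 of 11565 slopes were above 0. At the same threshold the whole table held 109 called genes, and 1 more liver or fewer moved that count widely, to 17 without liver 2, 33 without liver 5, 45 without liver 22 and 223 without liver 4. None of 5 technical measures passed a test against the score among the 8 livers. Genes detected had r = 0.672 and rho = 0.429 (adjusted exact permutation p = 0.266 and 0.374), and r was 0.639 without the 2 farthest livers. The share of counts in the 10 most abundant genes had r = -0.582 and rho = -0.619 (the same adjusted values), total count r = 0.549, globin share r = 0.432 and mitochondrial share r = 0.074. For the globin share, at most 0.0089% of counts in these livers, r was 0.767 without the 2 farthest livers. The part of these measures in the slopes was not tested.

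In livers that regrew after partial hepatectomy cell cycle genes again moved with the score. The 9 livers at day 3, scored on the same 5 genes, ran from -0.93 to 0.73, a narrower range of 3.17-fold, and day 0 livers lay from -4.92 to -3.67. Mki67 had 34.4, 66.9 and 95.6 CPM at the lowest, median and highest of the 9 livers, against 0.282, 1.52 and 6.03 CPM at day 0. Of 10917 genes tested, 42 rose (0.385%) and 6 fell (0.055%) with the score. The mitosis list had 15 of 27 members that rose, none that fell, and 27 slopes above 0 with a median of 1.00, and the replication list had 2 of 25 that rose (Mcm7 and Lig1) and a median slope of 0.50. Of the 109 genes called over the 8 CCl4 livers, 107 were tested in the hepatectomy livers and 101 had a slope of the same sign, against 53.8% of all genes tested in both. For the positive ones this was 96 of 98, and for the negative ones 5 of 9. Genes called in both sets numbered 29, all positive, which is 26.6% of the CCl4 list and 60.4% of the hepatectomy list. The same 5 genes set the score in both sets, so the counts and the overlap describe which genes move with those 5.

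Ect2 ranged from 9.48 to 51.6 CPM over the 9 livers, with a median of 33.8 CPM and 0.914 to 3.41 CPM at day 0, and had a slope of 1.42 ± 0.21 (SE, adjusted p = 0.00936). Aurka, from 7.05 to 44.2 CPM, had a slope of 1.39 ± 0.21 (adjusted p = 0.0103), and Neurl1b, from 5.63 to 26.6 CPM, one of 1.30 ± 0.25 (adjusted p = 0.0303). Esco2 passed as well (1.05 ± 0.18, adjusted p = 0.0181), whereas Foxm1 (0.79 ± 0.18, adjusted p = 0.0777), Anln (0.80 ± 0.20, adjusted p = 0.13) and Rbl1 (0.39 ± 0.27, adjusted p = 0.82) did not. Myc fell with the score in this set (-1.52 ± 0.30, adjusted p = 0.0413) and was not called in 7 of the 9 fits without 1 liver. The hepatectomy calls leaned on single livers: without liver 19, labelled knockout and highest in score, 1 gene was called in all, without liver 17, the lowest, 15 genes, without liver 12 there were 24 and without liver 20 there were 30. In those fits 1, 5, 8 and 13 mitosis genes were called, and all 27 slopes were above 0 in each.

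**Figure D3:**
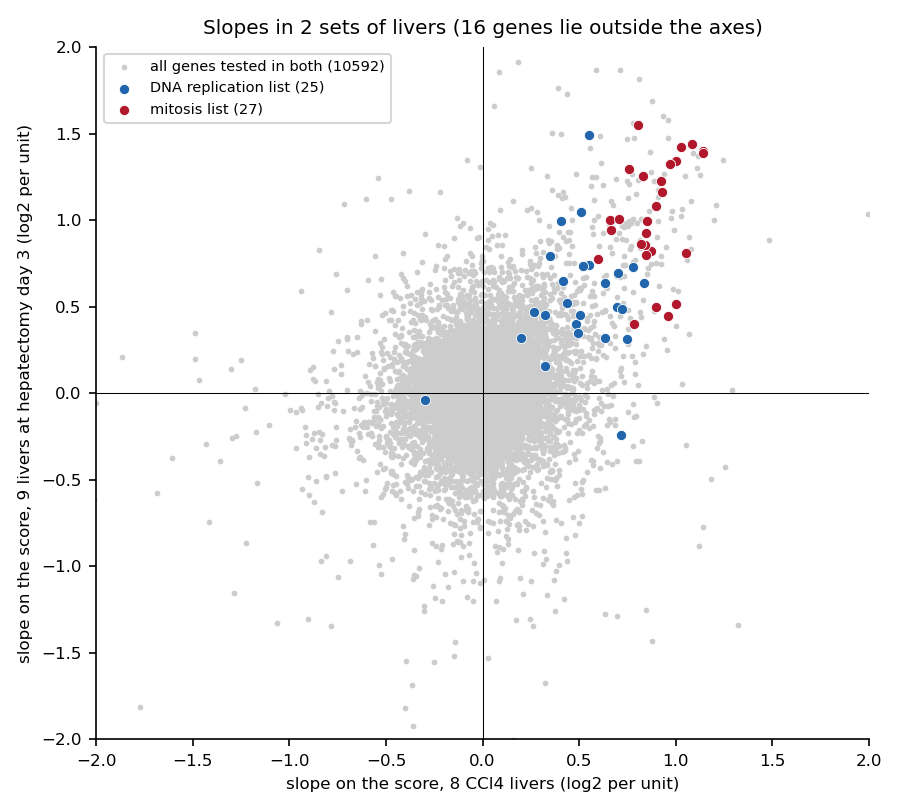
Slope on the proliferation score (log2 per unit) in the 8 CCl4 livers (x) and in 9 livers at hepatectomy day 3 (y) for 10592 genes tested in both, of which 16 lie outside the axes. All 27 mitosis genes have both slopes above 0 and most of the 25 replication genes lie nearer to the origin.

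Livers 34 and 35, one wild-type and one labelled knockout, were the lowest of the 10 in score and differed from the other 8 far beyond the cell cycle. Both lay above all 8 others for 2250 of 11565 genes (19.5%) and below all 8 for 2497 (21.6%). The pair was set apart by its score, so these counts and the values below describe the 2 livers and carry no test. All 27 mitosis genes and all 25 replication genes lay below the 8 others. Relative to olive oil, the replication list averaged 0.07 log2 units in liver 35 and -0.20 in liver 34, inside or just below the spread of single olive oil livers (-0.15 to 0.30), and the mitosis list averaged 1.17 and 0.48, above that spread (-0.16 to 0.14). Of the G1 regulators, Ccnd1 had 8.87 and 4.29 CPM in livers 35 and 34, against 74.8 to 177 CPM in the other 8 and 23.8 to 56.8 CPM after olive oil. E2f1 had 0.246 and 1.67 CPM, against 12.3 to 28.0 CPM in the other 8 and 3.28 to 9.03 CPM after olive oil. Both genes were thus lower in the pair than in livers that were not injured. Myc, an early gene of the regenerative response, was higher at 37.2 and 48.1 CPM, against 5.90 to 19.8 CPM in the other 8 and 1.43 to 10.3 CPM after olive oil.

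Some CCl4 changes were present in all 10 livers. Gpnmb, a marker of lipid-associated macrophages, had 174 and 97.2 CPM in livers 35 and 34 and 36.9 to 84.5 CPM in the other 8, against at most 0.751 CPM after olive oil. Cdkn1a, the p21 cell cycle inhibitor, had 149 and 65.0 CPM in the pair and 13.6 to 137 CPM in the other 8, against 0.821 to 11.5 CPM. Cyp2e1 had 2094 and 862 CPM in the pair and 422 to 2575 CPM in the other 8, against 3449 to 9155 CPM. Col1a1, fibrillar collagen, had 107 and 62.2 CPM in the pair and 74.7 to 171 CPM in the other 8, against 7.19 to 16.0 CPM. For these 4 genes every CCl4 liver lay on the same side of the olive oil range.

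Immediate early genes and protein folding genes were high in the pair more often than the 19.5% of all genes above the other 8. Of 13 measured immediate early genes, 10 lay above all 8 others and none below. Junb, an AP-1 subunit, had 190 and 113 CPM in livers 35 and 34, against 9.67 to 22.7 CPM in the other 8 and 7.19 to 15.2 CPM after olive oil. Of the cell cycle inhibitors and p53 targets, 3 of 17 lay above and 1 below, no larger a share above than the 19.5% of all genes. One of the 3 was Btg2, an antiproliferative p53 target, with 545 and 298 CPM in the pair, 17.1 to 159 CPM in the other 8 and 7.63 to 42.6 CPM after olive oil. The protein folding and stress list had 7 of 14 above and none below. Relative to olive oil it averaged 1.47 log2 units in liver 34 and 0.34 in liver 35, against -0.27 to 0.24 in the other 8. The value of liver 35 lay inside the spread of single olive oil livers (-0.18 to 0.38). Chac1, which degrades glutathione under amino acid and folding stress, had 33.5 and 41.2 CPM in the pair, against 0 to 2.92 CPM in the other 8. In the glutathione and NRF2 list 4 of 14 lay above and 3 below, near the 19.5% and 21.6% of all genes. Its member Hmox1, haem oxygenase 1, had 217 and 268 CPM, against 24.8 to 68.2 CPM in the other 8 and 9.03 to 43.6 CPM after olive oil. The ribosome biogenesis list had 7 of 16 above and none below.

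**Figure D4:**
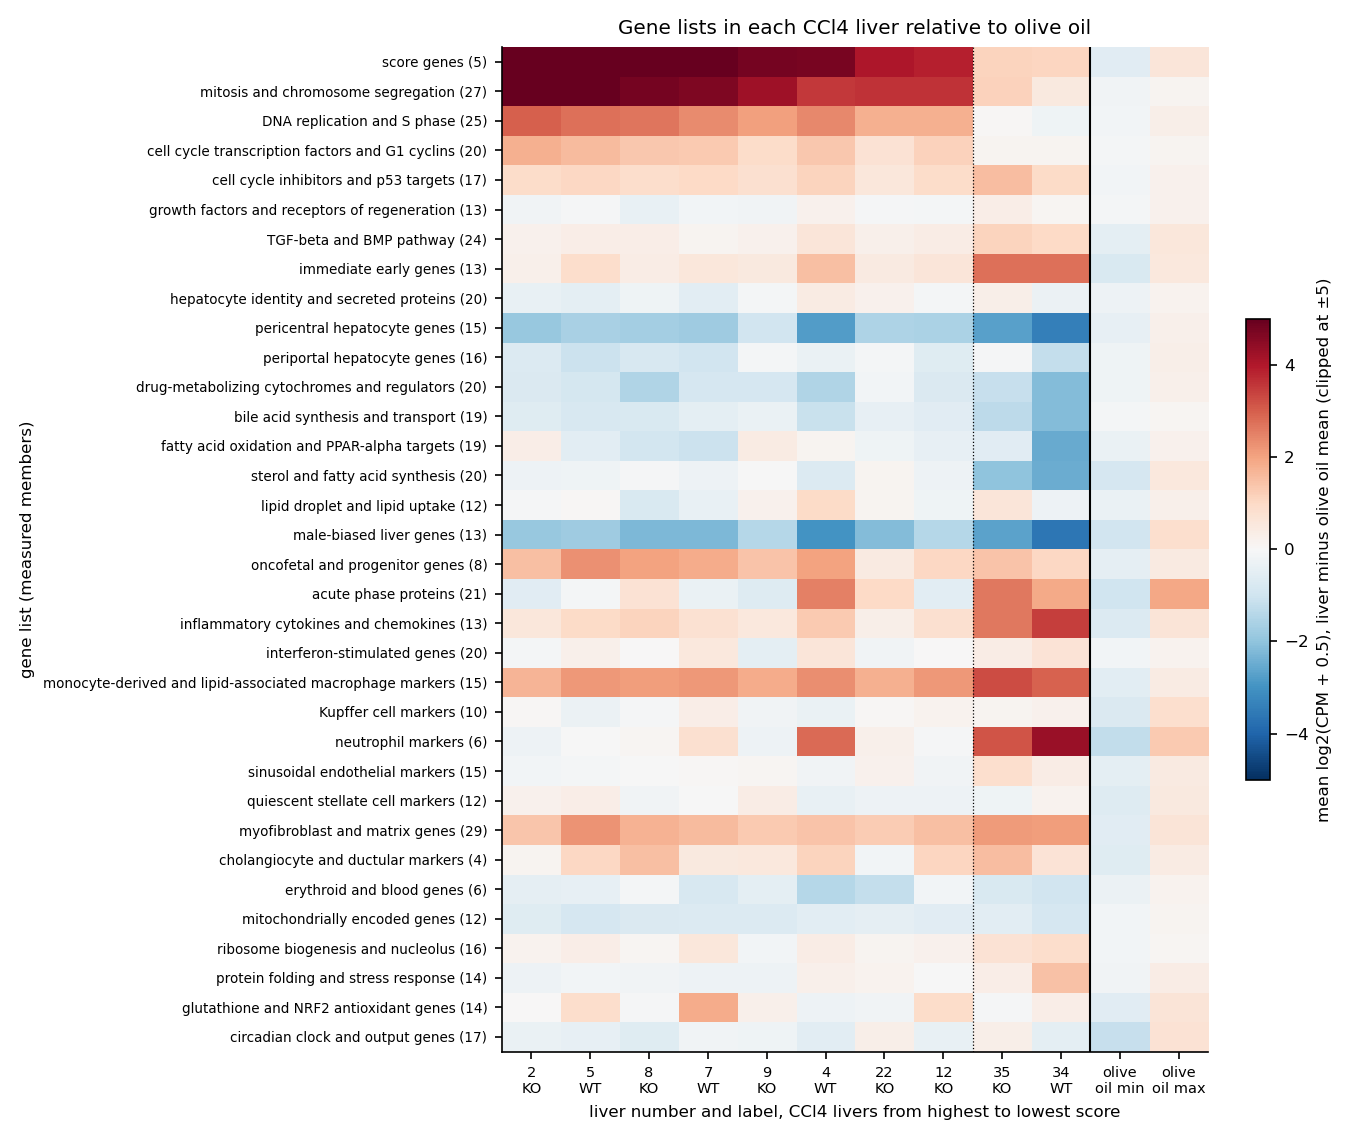
Mean log2(CPM + 0.5) of each gene list with at least 4 measured members in each CCl4 liver minus the olive oil mean, from the highest to the lowest score, with the lowest and highest single olive oil liver at the right. The upper rows fade over the 8 graded livers and drop in livers 35 and 34, where immediate early, cytokine, macrophage and neutrophil lists are high and sterol synthesis is low. Liver 4 is also high for the neutrophil list. The acute phase list averages 2.65 in liver 35 and 2.51 in liver 4, and its 1.91 in liver 34 lies inside the olive oil spread (-1.01 to 1.94).

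Several cytokines and markers of neutrophils and macrophages were also high, whereas Kupffer cell markers as a list were not. For comparison, the pair lay above all 8 others for 19.5% of all genes and below for 21.6%. The Kupffer list, with 3 of 10 above and 2 below, averaged 0.15 and 0.23 log2 units over olive oil in livers 35 and 34, inside the -0.32 to 0.32 of the other 8. Of 13 measured cytokines and chemokines, 6 lay above all 8 others and 2 below. Il1b had 46.3 and 173 CPM in livers 35 and 34, against 0.266 to 3.13 CPM in the other 8 and 1.43 to 4.76 CPM after olive oil. Cxcl1, a neutrophil chemoattractant, had 437 and 422 CPM, against 7.80 to 52.5 CPM in the other 8. Cd14, the co-receptor for bacterial lipopolysaccharide, had 226 and 312 CPM, against 1.74 to 25.4 CPM in the other 8 and 0.362 to 6.18 CPM after olive oil. The 12 neutrophil markers summed to 104 and 244 CPM in the pair, 7.03 to 82.5 CPM in the other 8 and 1.91 to 30.0 CPM after olive oil, and 4 of the 6 measured were above all 8 others. The 16 macrophage markers summed to 6836 and 11658 CPM in the pair, 1294 to 2224 CPM in the other 8 and 1036 to 1522 CPM after olive oil, with 7 of 15 above. Ctsl, a lysosomal protease, made up most of that sum, at 4505 and 9993 CPM in the pair and 501.1 to 1167 CPM in the other 8. The 16 sinusoidal endothelial markers summed to 548 and 404 CPM, against 258 to 339 CPM in the other 8 and 213 to 431 CPM after olive oil, a range that includes liver 34, with 6 of 15 above. No member of the neutrophil, macrophage, endothelial and Kupffer lists was at 0 in all 10 livers. Liver 4, of index D503, was at the upper end of the 8, toward the pair, for Cd14, Cxcl1, Btg2 and Ctsl. It was not the nearest for every gene. G0s2, at 1.48 and 1.67 CPM in the pair, had 28.9 CPM in liver 4, the highest of the 8. Socs2, at 278 and 101 CPM in the pair, had 12.3 CPM in liver 4 and 28.8 CPM in liver 22. The part of these cell types in the other differences was not tested.

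Of 21 acute phase genes, 5 lay above all 8 others, near the 19.5% of all genes, and 2 below, against 21.6% of all genes. Saa3, serum amyloid A3, had 874 and 294 CPM in livers 35 and 34, against 2.99 to 90.4 CPM in the other 8, and 4.77 to 117 CPM after olive oil. Bmper, an extracellular BMP-binding regulator, had 163 and 162 CPM in the pair, 21.4 CPM in liver 4, 4.26 CPM in liver 22 and at most 0.65 CPM in the other 6, against at most 1.99 CPM after olive oil. It was the steepest descending gene over the 10 livers under the selection given for named genes, and was not called over the 8 without the pair (adjusted p = 0.554). In the TGF-beta and BMP list, 10 of 24 lay above the 8 others and 2 below. Inhbb, the activin beta B subunit, had 26.3 and 51.5 CPM in the pair and 0.827 to 10.7 CPM in the other 8, and Fst, the activin antagonist follistatin, had 50.5 and 39.8 CPM and 4.13 to 18.2 CPM.

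Metabolic genes moved in both directions. Of all genes, 19.5% lay above all 8 others in the pair and 21.6% below. In the sterol and fatty acid synthesis list 18 of 20 lay below all 8 others and none above. Elovl6, a fatty acid elongase, had 5.17 and 10.5 CPM in livers 35 and 34, against 30.9 to 60.8 CPM in the other 8 and 39.3 to 124 CPM after olive oil. Acly, which makes cytosolic acetyl-CoA, had 88.9 and 84.3 CPM, against 158 to 351 CPM in the other 8 and 154 to 545 CPM after olive oil. Fatty acid oxidation genes had 9 of 19 below and none above, with Cpt2 at 36.2 and 33.6 CPM against 80.6 to 144 CPM in the other 8. Relative to olive oil, that list averaged -0.57 log2 units in liver 35, inside the -1.07 to 0.42 of the other 8. In liver 34 it averaged -2.51, below them. The hepatocyte identity list had 4 of 20 above and 4 below, and the periportal list 3 of 16 above and 4 below. Of their members, Tat and Sds, enzymes of amino acid breakdown, were high, with Tat at 8447 and 7244 CPM, 343 to 2839 CPM in the other 8 and 1064 to 2360 CPM after olive oil, and Sds at 1222 and 552 CPM, 14.9 to 304 CPM in the other 8 and 97.4 to 282 CPM after olive oil. Of 15 measured pericentral genes, 5 lay below all 8 others and 2 above. Relative to olive oil the list averaged -2.73 and -3.42 log2 units in livers 35 and 34. The other 8 ran from -2.80 to -0.95 with a median of -1.65, a range that includes liver 35. Glul was one of the 2 pericentral genes above, at 246.5 and 176.5 CPM against 37.5 to 75.8 CPM in the other 8 and 460 to 1058 CPM after olive oil. Slco1a1, a male-biased transporter, had 3.94 and 4.76 CPM in the pair, 26.6 to 265 CPM in the other 8 and 159 to 523 CPM after olive oil. In the male-biased list as a whole, 1 of 13 lay above and 2 below. Alb had 58084 and 32106 CPM, below the other 8 (72670 to 124730 CPM) and the olive oil livers (71875 to 102370 CPM). In the lipid droplet and lipid uptake list 3 of 12 lay above and 3 below. Among them a pair of lipolysis genes parted, with Pnpla2, the triglyceride lipase, at 391 and 226 CPM against 32.2 to 109 CPM in the other 8, and its inhibitor G0s2 at 1.48 and 1.67 CPM against 9.72 to 28.9 CPM.

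**Figure D5:**
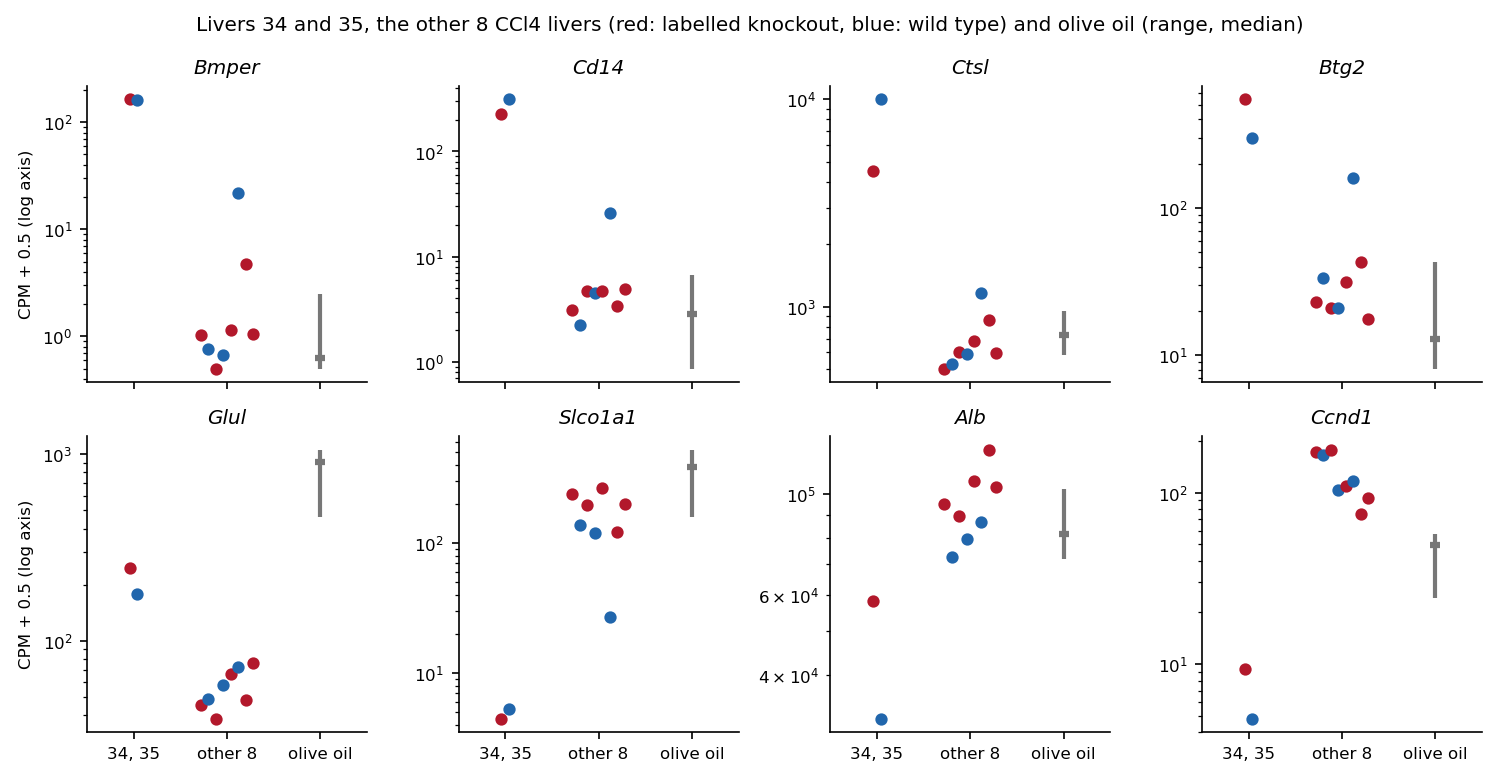
Levels (CPM + 0.5, log axis) of 8 genes in livers 34 and 35, in the other 8 CCl4 livers (single points, red labelled knockout, blue wild type) and in 6 olive oil livers (bar for the range, dash for the median). The pair stands outside the other 8 for each gene shown, and for Glul, Ccnd1, Slco1a1 and Alb it also lies below the olive oil livers.

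Fitted over all 10 livers, the score was accompanied by a much larger set of genes, 1971 with positive slopes (17.0% of 11565) and 1883 with negative slopes (16.3%). That count rested on livers 34 and 35. It was 918 and 1034 without liver 34, 821 and 967 without liver 35, 100 and 9 without both, and 24 positive and no negative gene with the i5 index as a covariate (0.208% positive). Of those 24 genes, 23 were among the 109 called over 8 livers. Among the 7 livers of index D503, which are the 8 livers without liver 22, 45 genes were positive (0.389%) and none negative. Of these 45, 42 were among the 109. Both fits rest mostly on livers of the 8-liver fit, so these overlaps are not separate checks of it. Between the 3 highest and the 3 lowest livers, 1410 genes (12.2%) were above without overlap and 1234 (10.7%) below, and 2 of the 3 lowest are the pair, so these counts have no version without it. Neurl1b, for instance, averaged 32.98 CPM in the 3 highest and 3.08 CPM in the 3 lowest, and Socs2 averaged 4.59 CPM in the 3 highest and 135 CPM in the 3 lowest. The Spearman coefficient with the score over the 10 livers was 0.988 for Ect2, Aurka, Anln and Neurl1b and -0.927 for Socs2, with livers 34 and 35 as a separate cluster. Over the 8 livers without them it was 1 for Ect2 and Anln, 0.976 for Aurka and Neurl1b and -0.881 for Socs2.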

How the data were processed

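Messenger RNA of whole mouse liver was sequenced from 16 livers of the CCl4 experiment and 14 livers of the hepatectomy experiment. The authors deposited raw counts per gene, 1 table for each experiment. Reads were aligned with TopHat2 2.0.11, counted with HTSeq and placed on GRCm38, per the submitters' processing notes, and the strand setting is not given in the sources used here. The counts, as the authors deposited them, were scaled by TMM and used as log2(CPM + 0.5). Symbols were found for 36345 of 38293 gene IDs in the CCl4 table and 53274 of 53379 in the hepatectomy table. Genes were kept where at least 3 livers reached the CPM of 10 counts in the median library. Slopes on the score were tested with edgeR 4.0.16 (R 4.3.3), with p-values adjusted over all genes kept other than the score genes and called under 0.05. The procedure was also run on simulated counts with the score as a fixed input. That setting leaves out that the score was computed from the same libraries, so it cannot check the effect of this. Limma 3.58.1 and DESeq2 1.42.0 gave alternatives. Permutation p-values of r and rho came from reordering the score over the livers, with ranks from scipy 1.17.1. Promoter windows came from RefSeq. The members and the 35 gene lists were chosen with earlier results of these data known. Named genes were the score genes, a fixed set of regulators and markers, up to 3 genes of smallest p in each list with a called member, and the 8 steepest slopes in each direction. The steepest slopes were taken among genes of at least 5 CPM on average, called over 10 livers and without overlap between the extreme livers. They also had to lie outside the score, mitosis and replication lists and to have the same sign of slope over the 8 livers. Their sign over the 8 livers was thus set by the selection. Csad, Smad9, Mcm4, Fen1, Rfc4, Mcm7, Lig1, Kif11 and Kif22 were named after their values were seen. Within each tested set the livers carry different mouse numbers, and p-values measure the spread between these livers. The 5 day 0 livers carry the same numbers as the 5 wild-type day 3 livers and entered no test. Although tests of the score between groups had been planned, its differences are given as values, since the score genes set the order. Hepatocyte, stromal and myeloid marker lists were summed as CPM. The diet experiment was not used here.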

Additional observations from a re-analysis of the deposited data

Results flagged for a closer look

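Of 62 groups of 4 to 10 livers examined, 9 held a value far from the others by Dixon's ratio (the gap to the nearest liver over the whole range), and chance gives about 1 in 20. That rate is not a like comparison, since livers 34 and 35 were set apart by the score and some genes were named by their slope on it. Among livers labelled knockout, liver 35 stood below the rest for Esco2 (0.246 CPM, ratio 0.661), E2f1 (0.246 CPM, ratio 0.7815) and Ccnd1 (8.87 CPM, ratio 0.7085). Among wild-type CCl4 livers, liver 34 stood below the rest for Ccnd1 (4.29 CPM, ratio 0.8685) and Foxm1 (0.715 CPM, ratio 0.8292), and liver 4 above the rest for Smad9 (13.9 CPM, ratio 0.8964). Among olive oil livers, the highest value was liver 27 for Aurka (2.31 CPM, ratio 0.6846), liver 26 for E2f1 (9.03 CPM, ratio 0.6916) and liver 26 for Melk (0.4755 CPM, ratio 1), where the other 5 livers were at 0.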

How the results depend on the processing

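Over 10 livers, 3854 genes were called, against 24 with the i5 index as a covariate, 45 within D503, 396 by Spearman's rho, 109 without livers 34 and 35 (an alternative chosen after seeing the data) and 1788 to 4062 without 1 liver each. Over 8 livers, 109 genes were called, against 295 by DESeq2, 224 by limma voom and 45 within D503, which is the fit without liver 22. A score from the mitosis list gave 69 positive and 23 negative genes. Fits without 1 liver each gave 17 to 223, and Spearman's rho gave 0 (1154 at an unadjusted p under 0.05). At hepatectomy day 3, 48 were called, against 83 by DESeq2, 25 by limma voom, 1 to 52 without 1 liver each, and 0 by Spearman's rho (644 at an unadjusted p under 0.05). The score difference between labelled knockout and wild-type livers was 0.318 with a score from the mitosis list, and -1.14 to 0.56 without 1 liver each, with a reversed sign without liver 35 (0.56), 12 (0.0105), 4 (0.0865), 7 (0.295) or 5 (0.514). The cause of these changes was not tested. The score difference between CCl4 and olive oil livers kept its direction in all 26 alternatives. Of 985 recomputed slopes, which cover only part of the named genes, none reversed, 92 lost their call and 18 gained one. Other named genes did change sign between the fits over 10 and over 8 livers. Alb, for example, had slopes of 0.19 and -0.20, and Cdkn1a -0.21 and 0.08, none of them called. No paired analysis was possible because the slopes were fitted within the CCl4 livers and within day 3, where no mouse number occurs more than once, and the day 0 livers, which share numbers with wild-type day 3 livers, entered no test. Depth limits Ccnb1, Bmp8b and Melk, which had few counts in livers 34 and 35 or in olive oil livers.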
